A study of Mus musculus with 10 samples.

Results

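The genes described here encode 10 A-kinase anchoring proteins (Akap1, Akap2, Akap5, Akap6, Akap8, Akap9, Akap10, Akap11, Akap12 and Akap13), measured in the aorta of mice with and without Ptgds. They were read on every probe set that the array's annotation gives to 1 of these symbols, which is 30 of the 45101 probe sets, for 10 of the 18193 genes named alone on a probe set. The family was selected on measured values: Akap5 lay near the top of the ranking when knockout and wild type arrays were compared. The differences between the genotypes are therefore given for these genes as a description. Where calls of a fit over all probe sets are counted for them, the count is no test of these genes.

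Total RNA came from aortas of male C57BL/6 mice fed chow. The control group is wild type (4 arrays with values, replicates 1, 3, 4 and 5). The other group carries the genotype Ptgds-/-, which lacks lipocalin-type prostaglandin D synthase, an enzyme that makes prostaglandin D2 (5 arrays, replicates 1 to 5). Wild type replicate 2 was excluded by the submitters and has no values. The labels call the samples biological replicates, but give no age, no substrain and no litter. They name no promoter or Cre, and they do not say how the allele was made.

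Cyclic AMP is made by adenylyl cyclases and activates protein kinase A (PKA), whose catalytic subunits are held inactive by a pair of regulatory subunits. Anchoring proteins bind the regulatory pair through an amphipathic helix and hold the kinase at a membrane, an organelle or the nucleus, beside its substrates and the phosphodiesterases and phosphatases that end the signal. In arterial smooth muscle cyclic AMP promotes relaxation, and the anchored kinase acts on ion channels and on the contractile machinery.

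For Akap5 and Akap13, the only genes of the 10 with a probe set on which the groups did not overlap, the 250 bases before the start site are shown, since these are the members on which the description turns. Both come from RefSeq (GRCm38.p6, plus strand), at chr12:76324641-76324890 for Akap5 and chr7:75455284-75455533 for Akap13. Capitals mark the GC box GGGCGG, searched on both strands.
Akap5: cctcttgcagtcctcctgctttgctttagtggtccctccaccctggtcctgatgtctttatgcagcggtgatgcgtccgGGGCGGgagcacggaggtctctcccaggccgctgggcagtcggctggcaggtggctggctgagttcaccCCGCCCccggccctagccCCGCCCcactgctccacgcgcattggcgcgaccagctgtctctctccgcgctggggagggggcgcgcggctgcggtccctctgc
Akap13: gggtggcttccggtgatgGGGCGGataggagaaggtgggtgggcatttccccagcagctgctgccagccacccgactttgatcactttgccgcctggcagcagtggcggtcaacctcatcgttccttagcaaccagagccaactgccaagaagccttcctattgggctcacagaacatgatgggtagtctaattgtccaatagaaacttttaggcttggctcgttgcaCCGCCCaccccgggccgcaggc
The Akap5 stretch holds 3 GC boxes and 20 CpG dinucleotides at 70.0% G or C. In Akap13 there were 2 GC boxes and 10 CpG dinucleotides at 58.4% G or C. Of 32851 RefSeq promoters, 32.7% hold a GC box in the same window, and the median promoter has 6.0 CpG dinucleotides and 52.4% G or C. The full cyclic AMP response element, TGACGTCA, is in neither stretch and in 1.55% of all promoters; its shorter form TGACG, searched on both strands, is also in neither and in 17.8% of all. Promoters of 8 of the 10 members matched by symbol. Of these, 0 held the full element, and 1, Akap11, held the shorter form in 1 of its promoters. Akap12 and Akap2 were not matched by symbol. RefSeq names the Akap2 locus Pakap, a gene joined with Palm2, and of its 5 promoters 0 held the full element and 2 the shorter form. These matches are a description of letters in a fixed window.

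On average, markers of smooth muscle, fibroblasts and fat cells were high on the arrays. All 7 smooth muscle markers (Acta2, Myh11, Tagln, Cnn1, Smtn, Des and Lmod1) lay over a log2 value of 4 on all 9 arrays, with a mean between 12.18 and 12.46. Fibroblast markers had means of 11.4 to 12.1 in wild type and 11.5 to 11.9 in knockout arrays. Adipocyte markers had means of 10.82 to 11.41 and 10.08 to 11.28, and brown adipocyte markers 10.80 to 11.64 and 10.21 to 11.01. Single fat markers were lower and varied more: over the 9 arrays Lep read 4.78 to 7.84 and the brown marker Elovl3 3.955 to 8.963. The share of each tissue in the RNA was not tested. Wild type replicate 3 correlated with the other arrays at a mean of 0.983, against 0.990 to 0.992 for the rest, and had the highest neuron markers. The mean of 9 neuron markers was 10.85 there, 8.98 on knockout replicate 1, 7.25 on wild type replicate 4 and between 3.99 and 5.21 on the other 6 arrays. Skeletal muscle markers stood at 9.39 on knockout replicate 3 and between 4.08 and 4.55 elsewhere. Ptgds itself, on probe set 1423859_a_at, was at 8.68 to 10.31 in wild type and at 3.67 to 4.40 in the knockout, with an adjusted p of 0.00060 (limma). Its second probe set, 1423860_at, was at 4.87 to 6.97 and at 3.92 to 4.35, with means of 5.93 ± 0.86 (SD, n = 4) and 4.13 ± 0.17 (SD, n = 5), and did not pass (adjusted p 0.089, limma). Whether these probes fall inside the deleted stretch is not given in the sources used here.

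Each probe set was fitted with limma over all 26504 probe sets that carry 1 gene symbol and read over a log2 value of 4 on at least 4 arrays. Of the 30 member probe sets, 27 met this minimum, and every member gene kept at least 1. The 3 that did not were 1441829_s_at and 1441830_x_at of Akap10 and 1439254_at of Akap13, which lay under 4 on all 9 arrays. Akap5 probe set 1447301_at met it through the knockout group, with 5 knockout arrays and 2 wild type arrays over 4. At an adjusted p of 0.05, 0 of the 27 were called, where 0.0792% of all probe sets tested (21) were, 0.0528% higher and 0.0264% lower. At an unadjusted p under 0.05 there were 7 of 27, 4 higher and 3 lower in the knockout, where 18.9% of all were, 10.5% higher and 8.38% lower. The groups did not overlap on 2 of 27, 1 higher and 1 lower, against 6.42% of all, 3.80% higher and 2.62% lower. As the family was taken up from this contrast, nothing is read from these counts. The median difference of the 27 was −0.049 (log2, knockout minus wild type), beside 0.011 over all tested, with 12 higher and 15 lower. The call counts moved with single arrays. Over all probe sets there were 1673 calls (6.31%) without wild type replicate 1, of which 2 were members (Akap5 1436142_at and Akap8 1433669_at). There were 6 or 7 calls over all probe sets without wild type replicate 4 or 5 or knockout replicate 1, 2, 3 or 5, with 0 members in each.

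**Figure D1:**
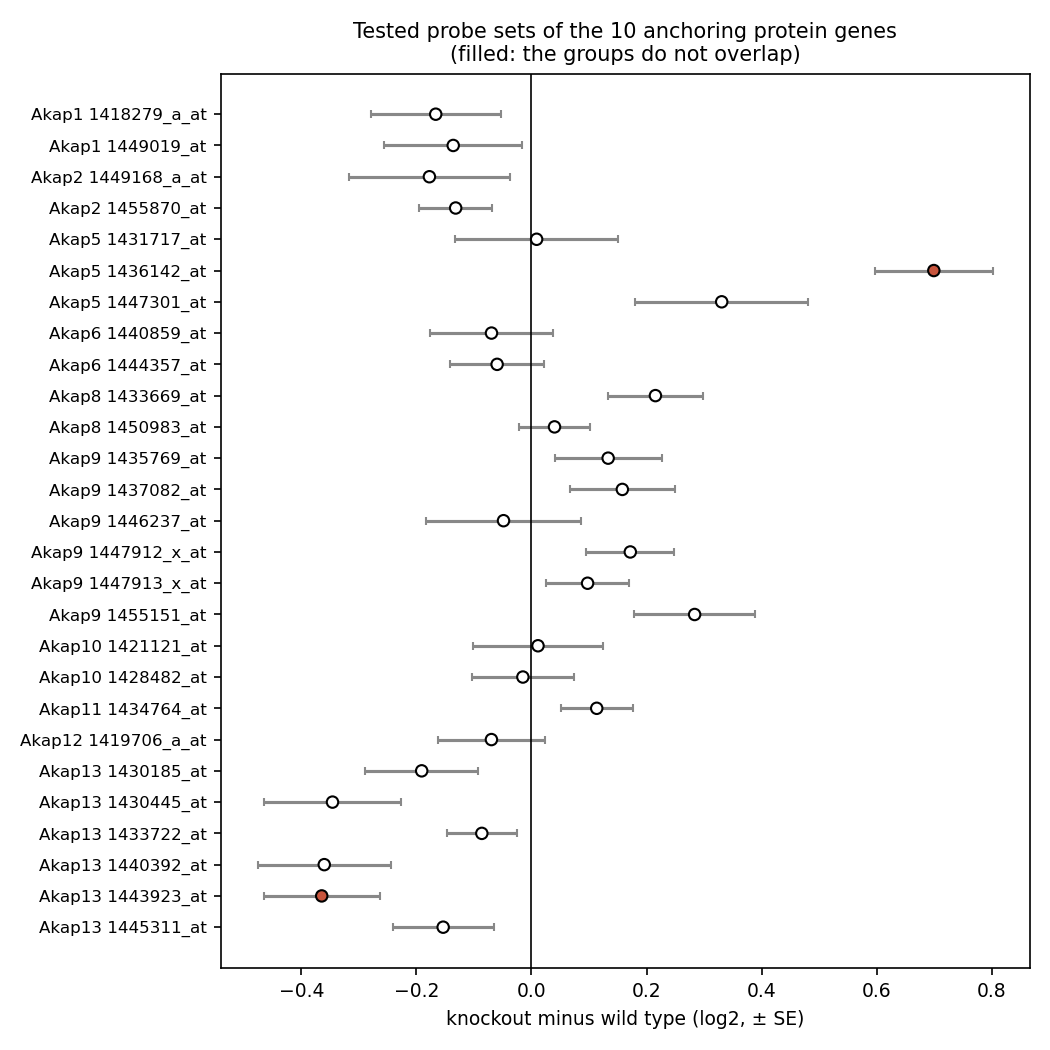
Difference between knockout and wild type (log2, horizontal axis, with the SE of the limma fit) for the 27 tested probe sets of the 10 genes, one line per probe set, 4 wild type and 5 knockout arrays. Filled points mark the 2 probe sets whose groups do not overlap, Akap5 1436142_at at 0.70 and Akap13 1443923_at at −0.36; all 6 probe sets of Akap13 lie left of 0 and all 3 of Akap5 right of it.

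Akap5 holds PKA, protein kinase C and the phosphatase calcineurin at the plasma membrane, near L-type calcium channels. Probe set 1436142_at gave log2 values of 5.57, 5.80, 5.66 and 5.32 for wild type replicates 1, 3, 4 and 5. For knockout replicates 1 to 5 it gave 6.35, 6.30, 6.33, 6.09 and 6.37. Every knockout array lay above every wild type array, and knockout replicate 4 came nearest to the wild type range. The means were 5.59 ± 0.20 (SD, n = 4) and 6.29 ± 0.11 (SD, n = 5), a difference of 0.70 (SE 0.10), or 1.62-fold. Without any 1 array the difference ran from 0.61 (without wild type replicate 5) to 0.77 (without wild type replicate 3).

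The other probe sets of Akap5 did not show the same separation. Probe set 1447301_at read 4.38, 3.74, 3.84 and 4.17 in wild type and 4.32, 4.66, 4.42, 4.11 and 4.31 in knockout arrays, so the groups overlapped close to the level of 4. Its difference was 0.33 (SE 0.15); it was 0.23 when wild type replicate 3 was left out, and 0.45 when replicate 1 was. Probe set 1431717_at read 5.33, 5.22, 5.16 and 5.13 in wild type. Its knockout values, 4.99, 5.38, 5.37, 4.83 and 5.53, lay on both sides of these, with a difference of 0.0090 (SE 0.14). The gap between the genotypes was thus large on 1 of the 3 probe sets, and which part of the transcript each one reads is not given in the sources used here.

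Neuron markers differed widely between arrays, and their values are set beside Akap5 1436142_at. Knockout replicate 1, with a neuron marker mean of 8.98, read 6.35, and the other knockout arrays, with means of at most 4.97, read 6.09 to 6.37. Wild type replicate 3, with the highest neuron marker mean, also had the highest wild type value. Wild type replicates 4, 1 and 5 had neuron marker means of 7.25, 5.21 and 3.99 and read 5.66, 5.57 and 5.32. The wild type arrays thus stood in the same order on both. Leaving out the highest wild type value can only widen the difference, which was 0.77 without wild type replicate 3 and 0.70 with it. The part of neurons in these values was not tested. In whole tissue, more cells of a type and more RNA per cell cannot be told apart.

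**Figure D2:**
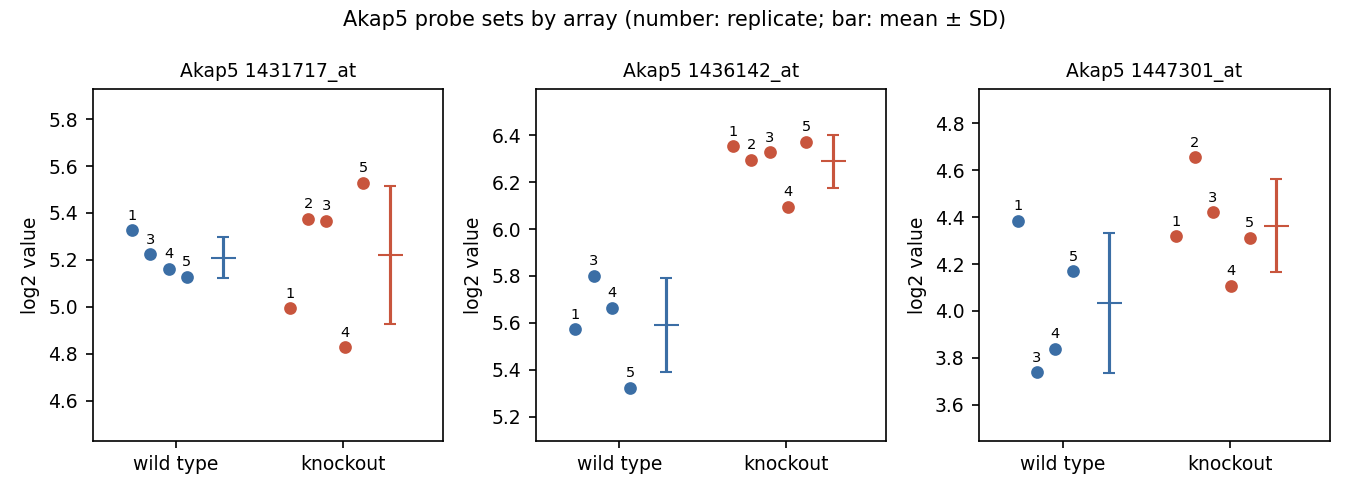
Log2 values of the 3 Akap5 probe sets on the 4 wild type (blue) and 5 knockout (red) arrays; numbers are replicates and bars are means ± SD, and the vertical axes differ in range. The groups are apart on 1436142_at (5.32 to 5.80 against 6.09 to 6.37) and overlap on the other two.

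The 5 genes whose values over the 9 arrays were most like Akap5 1436142_at, among 14320 other genes, were Zc2hc1c (Pearson r 0.958), C230034O21Rik (0.956), Tnk2, a tyrosine kinase (0.955), Ociad1 (0.952) and Ppp1r3f, a subunit that guides protein phosphatase to glycogen (0.942). These correlations hold the genotype difference of Akap5, for which it was selected, as well as the spread within groups, so the genotype differences of the 5 genes follow from how they were picked and are not given as results. After the group means were removed, their correlation with Akap5 was 0.732, 0.802, 0.744, 0.816 and 0.895 in the same order. The likeness was ranked over many genes on few arrays and is given as a description.

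Akap13 is a large anchoring protein that also activates the small GTPase RhoA. It had the most probe sets of the family, 7, and the 6 that were tested all stood lower in the knockout, by 0.086 to 0.36. On 1443923_at the wild type arrays read 8.89, 8.55, 8.65 and 9.04 and the knockout arrays 8.46, 8.34, 8.38, 8.48 and 8.43. The highest knockout array there, at 8.48, was just under the lowest wild type array, at 8.55. The difference was −0.36 (SE 0.10), or 1.29-fold lower, and ran from −0.44 without wild type replicate 3 to −0.28 without wild type replicate 5.

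Probe set 1440392_at of Akap13 read 10.42, 10.60, 10.70 and 10.80 in wild type and 10.04, 10.15, 10.26, 10.55 and 10.35 in knockout arrays. Knockout replicate 4 and wild type replicate 1 crossed, and the difference was −0.36 (SE 0.12). On 1430445_at, at a level of 3.93 to 4.79, the difference was −0.35 (SE 0.12), and −0.25 without wild type replicate 1. The values of 1430185_at were 10.15 to 10.46 in wild type and 9.96 to 10.34 in the knockout, a difference of −0.19 (SE 0.098). The remaining tested probe sets, 1445311_at near 4 and 1433722_at near 12, stood at −0.15 (SE 0.088) and −0.086 (SE 0.060). The brightest probe set of the gene thus had the smallest difference of the 6. The sign of all 6 was the same when any 1 array was left out, after a further quantile normalization and with array medians set equal.

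**Figure D3:**
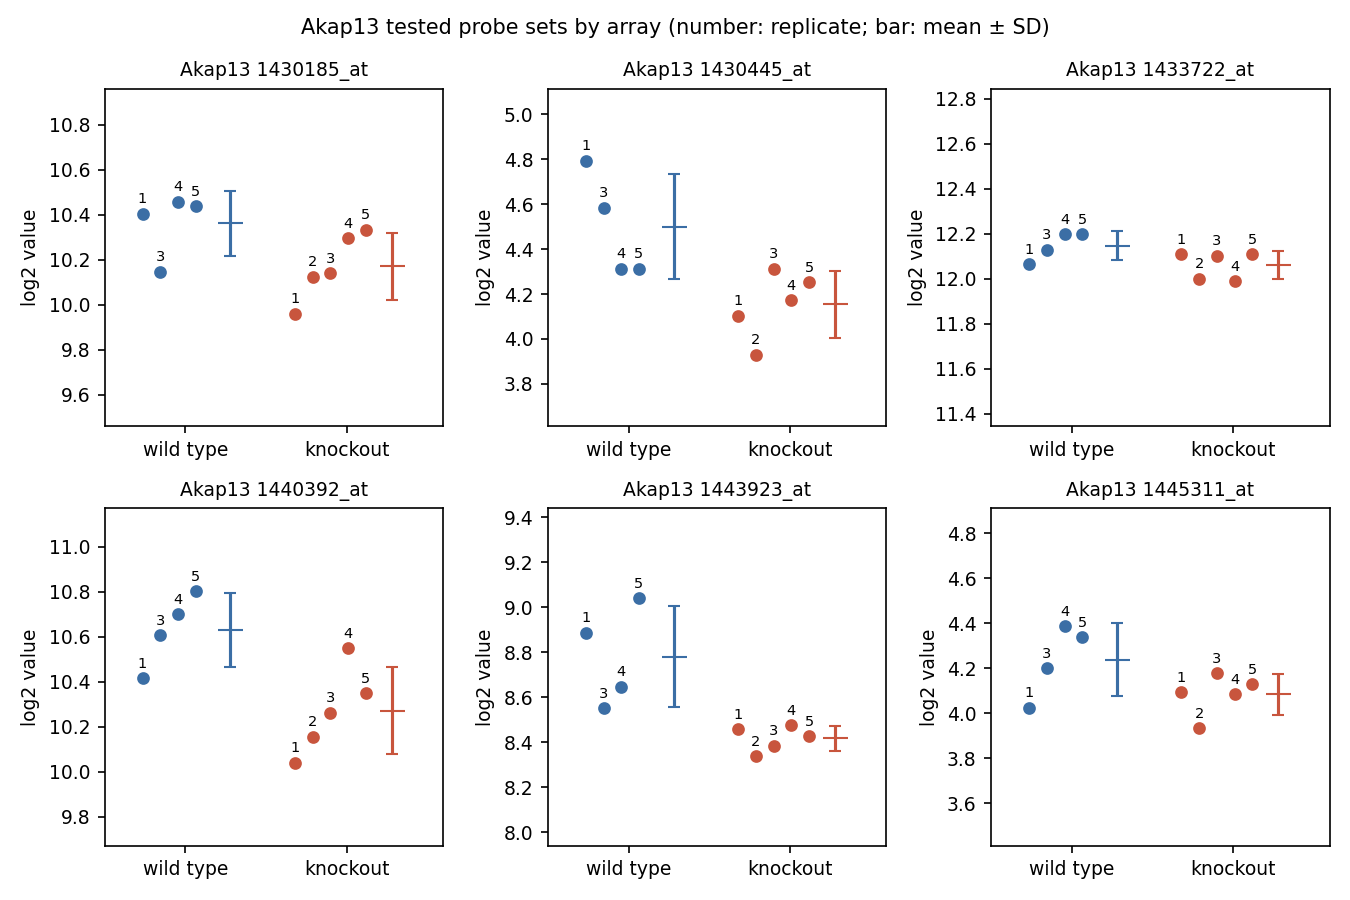
Log2 values of the 6 tested Akap13 probe sets on the 4 wild type (blue) and 5 knockout (red) arrays; numbers are replicates, bars are means ± SD, and the vertical axes differ in range. The knockout mean is the lower one in every panel, and only 1443923_at (top value 8.48 in knockout, lowest 8.55 in wild type) has groups that do not overlap.

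Akap9 scaffolds PKA at the centrosome and the Golgi apparatus. Of its 6 tested probe sets, 5 stood higher in the knockout and 1 lower, from −0.049 to 0.28, and the groups overlapped on all 6. On 1455151_at the wild type arrays read 7.89, 7.82, 7.58 and 7.60 and the knockout arrays 8.05, 8.23, 7.98, 8.01 and 7.77. Knockout replicate 5 lay inside the wild type range and the other 4 above it, with a difference of 0.28 (SE 0.11). Probe set 1447912_x_at stood at 0.17 (SE 0.076), 1437082_at at 0.16 (SE 0.091), 1435769_at at 0.13 (SE 0.093) and 1447913_x_at at 0.098 (SE 0.072). The exception, 1446237_at at −0.049 (SE 0.13), changed sign without wild type replicate 5, to 0.037. The suffix x marks probe sets whose probes can also bind other transcripts.

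Akap8, which binds chromatin and the nuclear matrix, was read on 2 bright probe sets. On 1433669_at the wild type arrays read 11.17, 10.83, 10.97 and 10.84 and the knockout arrays 11.16, 11.26, 11.17, 11.20 and 11.07. Wild type replicate 1 lay among the knockout arrays and the other 3 wild type arrays below all of them. The difference was 0.22 (SE 0.083), and 0.29 without wild type replicate 1. Probe set 1450983_at read 11.02 to 11.09 in wild type and 10.99 to 11.21 in the knockout, a difference of 0.040 (SE 0.061).

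Akap1 and Akap2 had differences below 0 on both of their probe sets, and the groups overlapped on all 4. Akap1, which ties PKA to the outer mitochondrial membrane, read 9.01, 9.44, 9.33 and 9.36 in wild type and 9.27, 9.04, 9.43, 8.97 and 9.05 in knockout arrays on 1449019_at. The ranges lay almost on top of each other, and the difference was −0.14 (SE 0.12), with −0.17 (SE 0.11) on 1418279_a_at. Akap2, which is linked to actin, stood at −0.13 (SE 0.063) on 1455870_at and −0.18 (SE 0.14) on 1449168_a_at. On the first of these, wild type replicates 3, 4 and 5 read 11.02, 10.90 and 10.97, above all knockout arrays (10.76 to 10.82), and replicate 1 read 10.79. For both genes wild type replicate 1 was the lowest wild type array on each probe set, and without it the differences were −0.23 and −0.27 for Akap1 and −0.18 and −0.32 for Akap2. Brown adipocyte markers, which belong to cells rich in mitochondria, had means of 11.47, 11.64, 10.80 and 10.89 in wild type replicates 1, 3, 4 and 5. In knockout replicates 1 to 5 the means were 11.01, 11.01, 10.94, 10.27 and 10.21. Wild type replicate 1, lowest of its group for Akap1, had the second highest of these means. The part of brown fat in these values was not tested. The Palm2 portion of the joined locus stood at 0.16 (SE 0.22) and 0.020 (SE 0.098) on its 2 probe sets.

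Akap12, a protein kinase C substrate also called gravin, read 12.35, 12.63, 12.22 and 12.56 in wild type and 12.26 to 12.46 in the knockout, inside the wild type range. Its difference was −0.070 (SE 0.093), and −0.0066 without wild type replicate 3. Akap6, which places PKA at the nuclear envelope of muscle cells, read 9.13 to 9.63 in wild type and 9.24 to 9.50 in knockout arrays on 1440859_at, with a difference of −0.069 (SE 0.11). On the other Akap6 probe set, 1444357_at, the difference was −0.060 (SE 0.082) and the groups overlapped as well. Cardiomyocyte markers had means of 6.43 to 8.94 in wild type and 6.65 to 8.27 in the knockout. Akap11, which also binds protein phosphatase, read 11.05 to 11.15 in wild type and 11.15 to 11.37 in knockout arrays, a difference of 0.11 (SE 0.062), the groups touching at wild type replicate 1 and knockout replicate 4. Akap10, which binds both kinds of regulatory subunit, stood at 0.011 (SE 0.11) and −0.015 (SE 0.089) on its 2 tested probe sets, and both signs changed when single arrays were left out.

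Agreement between probe sets of 1 gene was also tested on the spread within the groups, which does not use the genotypes. Each array's deviation from its group mean was compared over 38 pairs of probe sets from 8 genes, with an exact permutation of arrays within groups (2880 arrangements). After Benjamini-Hochberg adjustment 0 pairs passed, 1 had an unadjusted p under 0.05, and 21 of 38 correlations were above 0. The strongest pair was Akap13 1433722_at with 1445311_at. Its Pearson r was 0.835 (exact permutation p 0.0118, adjusted 0.449) and its Spearman rho 0.895 (exact permutation p 0.0125, adjusted 0.475) over 9 arrays. Without the 2 arrays farthest from the median on 1433722_at alone, r was 0.905. For Akap5, 1436142_at and 1447301_at gave an r of −0.268 (exact permutation p 0.605, adjusted 0.919) and a rho of −0.550 (exact permutation p 0.220, adjusted 0.762). Without the 2 arrays farthest from the median on 1436142_at alone, their r was −0.887. Of the 15 pairs of Akap13, whose 6 probe sets share a sign between the genotypes, 9 correlated above 0 within groups, and for Akap9 6 of 15 did. A p that misses the threshold does not show that a shared movement is absent.

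Other genes of the pathway were counted in 7 lists of 71 genes, of which 66 were on the array and 61 were tested, each by its brightest probe set. In limma 0 of the 61 passed an adjusted p of 0.05, where 0.0628% of all genes did by the same probe set. At an unadjusted p under 0.05 there were 19 of 61, 11 higher and 8 lower, where 19.1% of all genes were, 12.2% higher and 6.94% lower. With array weights 1 passed (Akap17b), where 1.38% of all probe sets did. Without wild type replicate 1 there were 5 (Akap17b, Creb1, Crem, Pde4b and Pde8a), where 6.31% of all probe sets passed. The median difference of the 61 was −0.0093, beside 0.027 over all genes, of which 43.3% were lower. The groups did not overlap for 5 of them, against 6.76% of all genes.

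**Figure D4:**
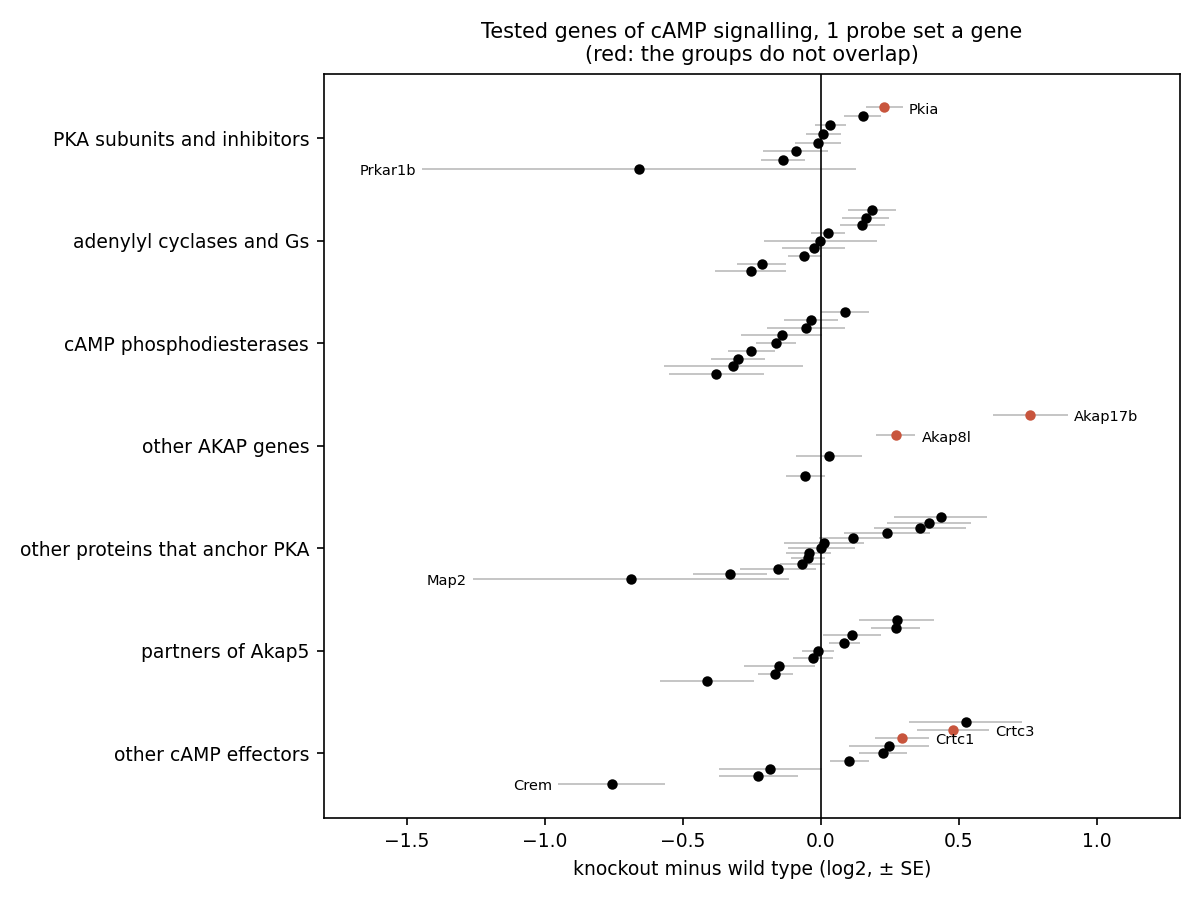
Difference between knockout and wild type (log2, horizontal axis, with SE) for the 61 tested genes of 7 lists of cyclic AMP signalling, 1 point per gene, 4 wild type and 5 knockout arrays. Red points mark the 5 genes whose groups do not overlap (Pkia, Akap17b, Akap8l, Crtc3 and Crtc1). Of 9 phosphodiesterases 8 lie left of 0, a count from which nothing is read.

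Among the other AKAP genes, 4 of 6 were tested (Akap3 and Akap4, known from sperm, were not), and 0 passed. The groups did not overlap for 2 of the 4, against 6.76% of all genes. The list was chosen with earlier results of these data known, so nothing is read from this count. Akap17b, an X-linked member, read 8.82, 8.33, 8.66 and 8.36 in wild type and 9.38, 9.37, 9.36, 8.93 and 9.46 in knockout arrays on 1457265_at. The lowest knockout array, replicate 4, lay just above the highest wild type array, replicate 1. The difference was 0.76 (SE 0.14), or 1.69-fold, with an adjusted p of 0.086 (limma) and a range of 0.017 to 0.346 over the alternatives. In limma it passed when wild type replicate 1 was left out (0.85, adjusted p 0.017), where 6.31% of all probe sets did. It also passed without knockout replicate 4 (0.85, adjusted p 0.049 in limma), where 0.117% of all did. Its second probe set, 1457686_at, stood at 0.54 (SE 0.12), with wild type arrays at 5.30 to 5.80 and knockout arrays at 5.82 to 6.29, an adjusted p of 0.113 (limma) and no overlap either. On both probe sets of this gene every knockout array thus lay above every wild type array, on 1457686_at by very little (5.82 against 5.80).

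Akap8l, a nuclear relative of Akap8, read 8.93, 8.87, 8.96 and 8.74 in wild type and 9.03, 9.26, 9.10, 9.19 and 9.14 in knockout arrays. The knockout arrays all lay above the wild type arrays by a small margin. The difference was 0.27 (SE 0.072, adjusted p 0.134 in limma, 0.069 to 0.350 over the alternatives). Akap8 and Akap8l are neighbours in the RefSeq gene order, with no coding gene between them. Akap7, a small membrane-bound anchoring protein, stood at −0.056 (SE 0.070, adjusted p 0.698 in limma).

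**Figure D5:**
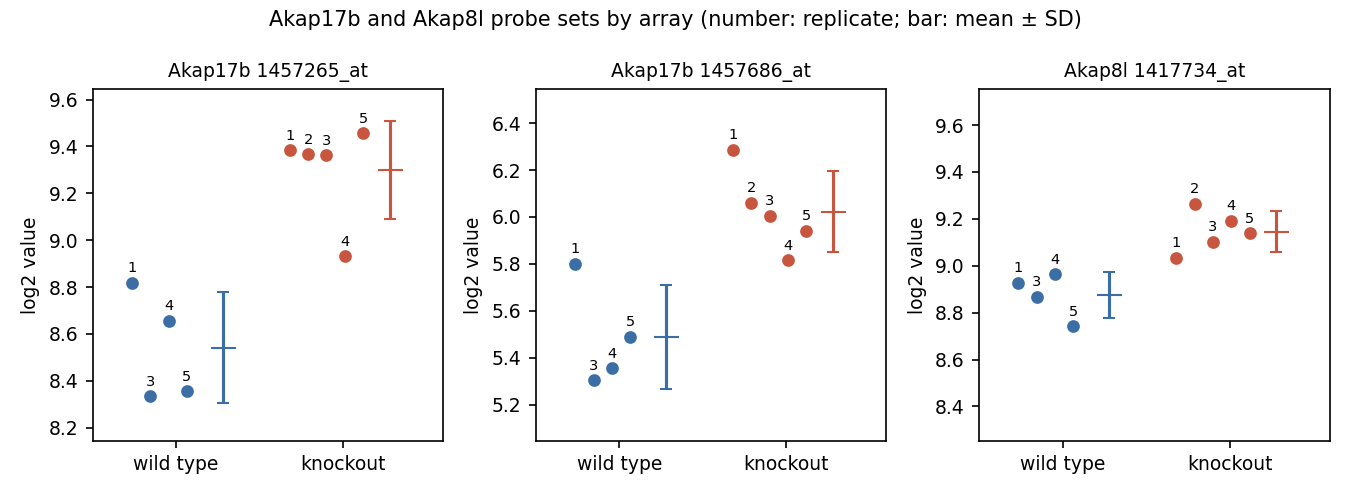
Log2 values of 2 Akap17b probe sets and 1 Akap8l probe set on the 4 wild type (blue) and 5 knockout (red) arrays; numbers are replicates, bars are means ± SD, and the vertical axes differ in range. In each panel the knockout arrays lie above the wild type arrays, by the least on Akap17b 1457686_at (5.80 against 5.82).

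Genes of PKA itself were spread around 0: of 8 tested subunits and inhibitors 4 were higher and 4 lower, with a median of −0.00058, and 0 passed. The kinase inhibitor gene Pkia, whose product binds free catalytic subunits, read 11.39, 11.19, 11.36 and 11.43 in wild type and 11.58, 11.49, 11.60, 11.59 and 11.60 in the knockout, without overlap. Its difference was 0.23 (SE 0.067, adjusted p 0.147 in limma), with 0.16 (SE 0.13) on its other probe set. Pkig, a second inhibitor, stood at 0.15 (SE 0.066, adjusted p 0.260 in limma). The regulatory subunit gene Prkar2b, abundant in fat, stood at −0.14 (SE 0.080), −0.16 (SE 0.090) and −0.43 (SE 0.17) on 3 probe sets, with adjusted p-values of 0.217 to 0.385 (limma). Knockout replicate 5 was the lowest array on all 3, and it also had the lowest mean of the adipocyte markers (10.08, against 10.57 to 11.41 on the other arrays). The part of fat in these values was not tested.

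Phosphodiesterases, which break down cyclic AMP, were lower in the knockout in 8 of 9 tested genes, with a median of −0.16, where 43.3% of all genes tested were lower and their median was 0.027. In limma 0 passed, and 3 of the 9 had an unadjusted p under 0.05 and were lower, where 6.94% of all genes did. This list too was chosen with earlier results of these data known, so nothing is read from these counts. Pde8a stood at −0.30 (SE 0.098, adjusted p 0.166) and −0.26 on its other probe set, Pde3b at −0.25 (SE 0.084, adjusted p 0.170) and Pde4d at −0.16 (SE 0.071, adjusted p 0.260). Pde8a passed without wild type replicate 1 (−0.39, adjusted p 0.033 in limma, against 0.033 to 0.372 over the alternatives). Without that array 6.31% of all probe sets passed. Pde3b, which is also abundant in fat, read 12.10 to 12.30 in wild type and 11.81 to 12.13 in the knockout, beside adipocyte marker means of 10.82 to 11.41 and 10.08 to 11.28.

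Of 9 tested genes for adenylyl cyclases and the stimulatory G protein, 4 were higher and 5 lower, and 0 passed. Adcy4, an endothelial cyclase, stood at −0.21 (SE 0.088, adjusted p 0.238 in limma), where 7 endothelial markers had means of 9.09 to 9.57 in wild type and 8.89 to 9.20 in knockout arrays. Adcy5 stood at 0.19 (SE 0.087) and Adcy3 at −0.25 (SE 0.13), with adjusted p-values of 0.289 and 0.319 (limma). Other probe sets of Adcy5 stood between −0.046 and 0.24.

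Partners that Akap5 brings together with PKA did not share a direction. Of 9 tested, 4 were higher and 5 lower, with a median of −0.0093 and 0 past the threshold. Dlg4, a membrane scaffold, stood at 0.27 (SE 0.089), the calcineurin subunit gene Ppp3ca at −0.16 (SE 0.065) and the cation channel gene Trpv4 at −0.41 (SE 0.17), with adjusted p-values of 0.167, 0.221 and 0.239 (limma). The other probe sets of Dlg4 stood at 0.27 and 0.11. All 3 probe sets of Ppp3ca were lower, by 0.16 to 0.30. Other proteins that anchor PKA were higher in 7 of 13 and lower in 6, with a median of 0.0020 and 0 past the threshold. Sphkap stood at 0.43 (SE 0.17), the muscle protein gene Cmya5 at 0.39 (SE 0.15) and Myrip, which acts on secretory granules, at −0.33 (SE 0.13), with adjusted p-values of 0.217, 0.219 and 0.231 (limma).

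Other effectors of cyclic AMP were higher in 6 of 9 tested genes and lower in 3, with a median of 0.22 and 0 past the threshold. Crem, a transcription factor gene that cyclic AMP itself induces, read 8.25, 8.95, 9.01 and 8.95 in wild type and 7.85, 7.92, 7.94, 8.55 and 7.90 in the knockout. Wild type replicate 1 and knockout replicate 4 crossed, and the other arrays of each group lay apart. The difference was −0.76 (SE 0.19, adjusted p 0.129 in limma), and −0.94 without wild type replicate 1, where 6.31% of all probe sets passed. The adjusted p without that array was 0.019 in limma (0.019 to 0.341 over the alternatives). The other 2 probe sets of Crem stood at −0.62 (SE 0.28) and −0.54 (SE 0.14). Crtc3 and Crtc1, coactivators of the cyclic AMP response factor, stood at 0.48 (SE 0.13) and 0.29 (SE 0.097) without overlap on their brightest probe sets, with adjusted p-values of 0.135 and 0.167 (limma). On their other probe sets the groups overlapped, with differences of 0.23 (SE 0.13) for Crtc3 and 0.28 (SE 0.12) and −0.036 (SE 0.15) for Crtc1.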

How the data were processed

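Total RNA from 10 mouse aortas was hybridised to 1-colour Affymetrix arrays, and 9 have values. Per the submitters' processing notes, the deposited log2 values came from GCRMA, a method that corrects background and normalizes arrays together; its version and the scale are not stated. The log2 scale was inferred from the range of the values, and another scale would alter every difference. Differences near a value of 4, close to background, are less certain. Precision is limited by how few arrays there are.

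Gene symbols came from the platform annotation (34945 probe sets with 1 symbol, the others left out) and promoters from RefSeq, GRCm38.p6. The test of knockout against wild type used limma 3.58.1 (lmFit, eBayes, no covariate; R 4.3.3), Benjamini-Hochberg adjusted over 26504 probe sets. The procedure was tested on simulated data. Genes named are all member probe sets, the 5 genes most like Akap5, Ptgds, and the 3 smallest p-values of each pathway list. Marker genes and Palm2 are also named, as are some pathway genes that passed under an alternative, varied most or were not tested. Members and lists were chosen with earlier results of these data known. Alternatives were normalization, filters, fit options, the replicate number as a block and leaving out each array.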

Additional observations from a re-analysis of the deposited data

Results flagged for a closer look

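Among the tested member probe sets and the named pathway genes, 96 groups of 4 or 5 arrays were checked for 1 array far from the others, and 8 were found, where chance flags about 1 in 20. Knockout replicate 4 stood apart on Akap5 1436142_at (6.09, the other knockout arrays 6.30 to 6.37), Akap17b 1457265_at (8.93, the others 9.36 to 9.46) and Crem (8.55, the others 7.85 to 7.94), each time toward the wild type values. Wild type replicate 1 stood apart on Crem (8.25, the others 8.95 to 9.01), toward the knockout values. Wild type replicate 3 was low on Akap13 1430185_at (10.15, the others 10.41 to 10.46) and on Akap9 1437082_at (6.42, the others 6.63 to 6.67). Knockout replicate 2 was low on Pkia (11.49, the others 11.58 to 11.60), and knockout replicate 5 was high on Crtc3 (10.98, the others 10.63 to 10.72).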

How the results depend on the processing

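The number of member probe sets past the threshold was 0 and became 1 (Akap5 1436142_at) with a floor of 6, with trend and robust options and with array weights, 7 at an unadjusted p, and 0 to 2 without any 1 array. These calls use the contrast that selected the family and test nothing about it; with the floor of 6, Akap5 1436142_at entered only through the knockout arrays. Pathway genes went from 0 to 1 with array weights, to 19 at an unadjusted p, and ran from 0 to 5 without any 1 array. Over all probe sets the 21 calls became 66 with trend and robust options, 367 with array weights, 8 with 1 probe set a gene, 5005 at an unadjusted p, and 6 to 1673 without any 1 array. With the replicate number as a block there was 1 call over all probe sets, and 0 among members and pathway genes. Deviations of same-numbered arrays correlated at −0.269, −0.115, 0.071 and 0.145, and 0 of 4 wild type arrays correlated best with their own number. The labels do not say what arrays of 1 number share, and so few values cannot decide whether the numbers pair the arrays. Akap7 ran from −0.086 to 0.0077 without any 1 array and changed sign without wild type replicate 3. The cause of these changes was not tested. The difference kept its sign under every alternative run for 23 of the 27 member probe sets; the exceptions were Akap5 1431717_at, Akap9 1446237_at and both of Akap10. Of 423 recomputed member differences 0 moved by more than 1 SD of the replicates. Most could not: filters and the trend and robust options leave a difference unchanged. Leaving out 1 array shifts a group mean by less than that SD. The count is therefore no measure of stability. Signals near the level of 4 limit Akap5 1447301_at and Akap13 1430445_at and 1445311_at. The Akap10 probe sets under 4, 1441829_s_at and 1441830_x_at, were not tested.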

Other observations

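Of the pathway genes, Prkar1b and Map2, both abundant in neurons, varied most between arrays, and they were chosen here after their values were seen. Prkar1b read 11.36 on wild type replicate 3, 9.80 on knockout replicate 1 and 8.80 on wild type replicate 4, the 3 arrays with the highest neuron marker means, and 7.35 to 7.97 on the other arrays. Map2 read 9.44, 7.93 and 7.02 on the same 3 arrays and 6.24 to 6.76 elsewhere. Akap5 1436142_at read 5.80, 6.35 and 5.66 on these arrays.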
